A study of Mus musculus with 8 samples.

Results

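The libraries described here are those whose titles carry the numbers 5 and 8, set against those whose titles carry the numbers 1 and 2, from mouse central amygdala. All 8 libraries of the series enter, 4 of each number set, and the labels do not say what the number stands for. The number set holds 2 libraries of each diet: high fat 5, high fat 8, chow 5 and chow 8 on one side, and high fat 1, high fat 2, chow 1 and chow 2 on the other. The mice were of the 129SV strain, aged 7 months, and had eaten either a high fat diet for 20 weeks or normal chow. The labels name no other allele, agent or sex. They also leave unsaid whether 2 libraries could come from 1 animal, so any spread between libraries, and any p resting on it, may be technical. The split was proposed because Hcrt and Pmch had already been seen to differ along it. The contrast between the number sets is therefore a description: its fit supplies folds, SEs and an order of genes, and the p-values and calls it returned support nothing. The contrast between diets and the interaction of diet with number set were tested.

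Hcrt encodes the precursor of the hypocretins (orexins), peptides of a small group of lateral hypothalamic neurons that promote wakefulness and feeding. Pmch encodes the precursor of melanin-concentrating hormone, made by a neighbouring but separate group of neurons in the lateral hypothalamus and zona incerta that also takes part in feeding and sleep. The cell bodies of both groups lie outside the central amygdala, a nucleus of inhibitory neurons on the lateral side of the hypothalamus, to which both groups send axons.

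The start sites of Hcrt and Pmch, on which the split was chosen, and of Slc17a6, which ranked next to them by p in the edgeR fit, are shown so that a reader can place these transcripts in the genome. Each sequence runs 5′ to 3′ on the gene's strand, from 250 bases before to 50 bases after the annotated start, taken from RefSeq on GRCm38.p6. Hcrt lies on the minus strand at chr11:100762882-100763181, Pmch on the plus strand at chr10:88090822-88091121, and 1 of the 2 Slc17a6 start sites on the plus strand at chr7:51624387-51624686. Capitals mark the TATA box letters TATAAA in the Hcrt and Pmch windows and the homeodomain core TAATTA in the Slc17a6 window.
Hcrt: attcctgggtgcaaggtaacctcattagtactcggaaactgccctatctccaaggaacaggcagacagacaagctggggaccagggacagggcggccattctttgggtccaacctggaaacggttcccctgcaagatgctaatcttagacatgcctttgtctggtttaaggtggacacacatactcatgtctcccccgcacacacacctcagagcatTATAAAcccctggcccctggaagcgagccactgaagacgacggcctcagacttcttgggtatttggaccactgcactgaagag
Pmch: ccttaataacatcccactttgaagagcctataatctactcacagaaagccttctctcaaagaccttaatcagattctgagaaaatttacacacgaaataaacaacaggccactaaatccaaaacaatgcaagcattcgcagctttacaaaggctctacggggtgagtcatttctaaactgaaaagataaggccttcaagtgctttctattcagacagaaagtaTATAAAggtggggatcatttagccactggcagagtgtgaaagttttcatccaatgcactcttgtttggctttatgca
Slc17a6: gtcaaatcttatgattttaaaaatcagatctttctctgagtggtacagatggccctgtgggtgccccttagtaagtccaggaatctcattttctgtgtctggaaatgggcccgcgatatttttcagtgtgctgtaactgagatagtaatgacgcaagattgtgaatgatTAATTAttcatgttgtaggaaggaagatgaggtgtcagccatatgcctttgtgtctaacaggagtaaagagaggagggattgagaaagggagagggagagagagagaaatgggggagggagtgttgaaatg
TATAAA began 33 bases before the Hcrt start and 27 bases before the Pmch start, and was found on either strand in 13.6% of 32851 promoter windows. TAATTA, which reads the same on both strands, began 81 bases before this Slc17a6 start and was found in 5.29% of windows. The other Slc17a6 window, at chr7:51621580-51621879, held neither. Searched on both strands, the nuclear receptor letters AGGTCA was in none of the 4 windows and in 16.3% of all windows. The E-box letters CACGTG (7.15% of all windows) and the cAMP response element letters TGACGTCA (1.79%) were not in the 4 windows either.

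The libraries were of similar depth. Totals were 17815071 ± 299705 counts with numbers 5 and 8 and 18709863 ± 679245 counts with numbers 1 and 2 (SD, n = 4 each). Genes with at least 10 counts numbered 15171 ± 55 with numbers 5 and 8 and 15102 ± 154 with numbers 1 and 2 (SD, n = 4 each). Chow 1 stood apart from the other 7 libraries on the first principal component, at 97.6. Chow 1 also had the lowest score, a mean centred log2 CPM, of 7 splicing and nuclear-retained RNA genes, at -1.13 beside -0.11 to 0.27 in the other 7 libraries, and a summed level of 1189 CPM beside 3562 to 4970 CPM. Its score of 4 Y-linked genes was -1.36 beside -0.18 to 0.32. Its scores of ribosomal protein and oxidative phosphorylation genes were the highest, at 0.49 and 0.51 beside -0.42 to 0.19 and -0.25 to 0.08. The part of these differences in the results that rest on chow 1 was not tested. No pair of libraries agreed within counting noise. Chi-square over its degrees of freedom was 8.12 for the closest pair, high fat 5 with chow 2, and 16.9 to 198 within one diet and number set, a measure that does not tell 2 libraries of 1 animal from those of different animals. Levels are CPM, counts scaled to library size, not corrected for gene length, and are compared between libraries. Where genes are set side by side, as Hcrt with Pmch or Pomc with Foxb1, their lengths are not accounted for. Folds are log2 folds of numbers 5 and 8 over 1 and 2, with diet as a covariate and the SE of the edgeR fit.

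The gene for melanin-concentrating hormone differed widely between the number sets. Pmch (chromosome 10, 88091072 to 88092374) was at 52.2, 77.9, 55.5 and 23.6 CPM in high fat 5, high fat 8, chow 5 and chow 8, against 0.336, 0.605, 0.621 and 1.05 CPM in high fat 1, high fat 2, chow 1 and chow 2. Its lowest library numbered 5 or 8 lay far above its highest library numbered 1 or 2. The summed estimated counts were 3790 against 48, a ratio of 80.1 with a counting interval of 60.3 to 109 (95%, exact, counting error only). The log2 fold was 6.27 ± 0.48, with 7.09 within the high fat diet and 5.56 within chow.

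Hcrt gave the same picture at lower counts. Hcrt (chromosome 11, 100761693 to 100762931) was at 9.74, 31.6, 5.45 and 4.31 CPM in high fat 5, high fat 8, chow 5 and chow 8, against 0.0560, 0.110, 0.0517 and 0.276 CPM in high fat 1, high fat 2, chow 1 and chow 2. The sets did not overlap, and high fat 8 was the highest. The libraries numbered 1 and 2 held 1, 2, 1 and 5 reads of the gene, 9 in all, against 930 reads in those numbered 5 and 8. The ratio was 105, with a counting interval of 54.9 to 230 (95%, exact, counting error only), which leaves out the spread between libraries. The log2 fold was 6.37 ± 0.76, with 7.84 within the high fat diet and 4.86 within chow. Hcrt passed the filter on low counts only through the libraries numbered 5 and 8. In bulk tissue, fewer cells of a type and less RNA per cell cannot be told apart.

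The proportion between the 2 transcripts overlapped between the number sets. Hcrt counts were 0.186, 0.406, 0.0981 and 0.183 of Pmch counts in high fat 5, high fat 8, chow 5 and chow 8, and 0.174, 0.187, 0.0803 and 0.257 in high fat 1, high fat 2, chow 1 and chow 2. These ranges overlap, although those of numbers 1 and 2 rest on 1 to 5 Hcrt reads.

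**Figure D1:**
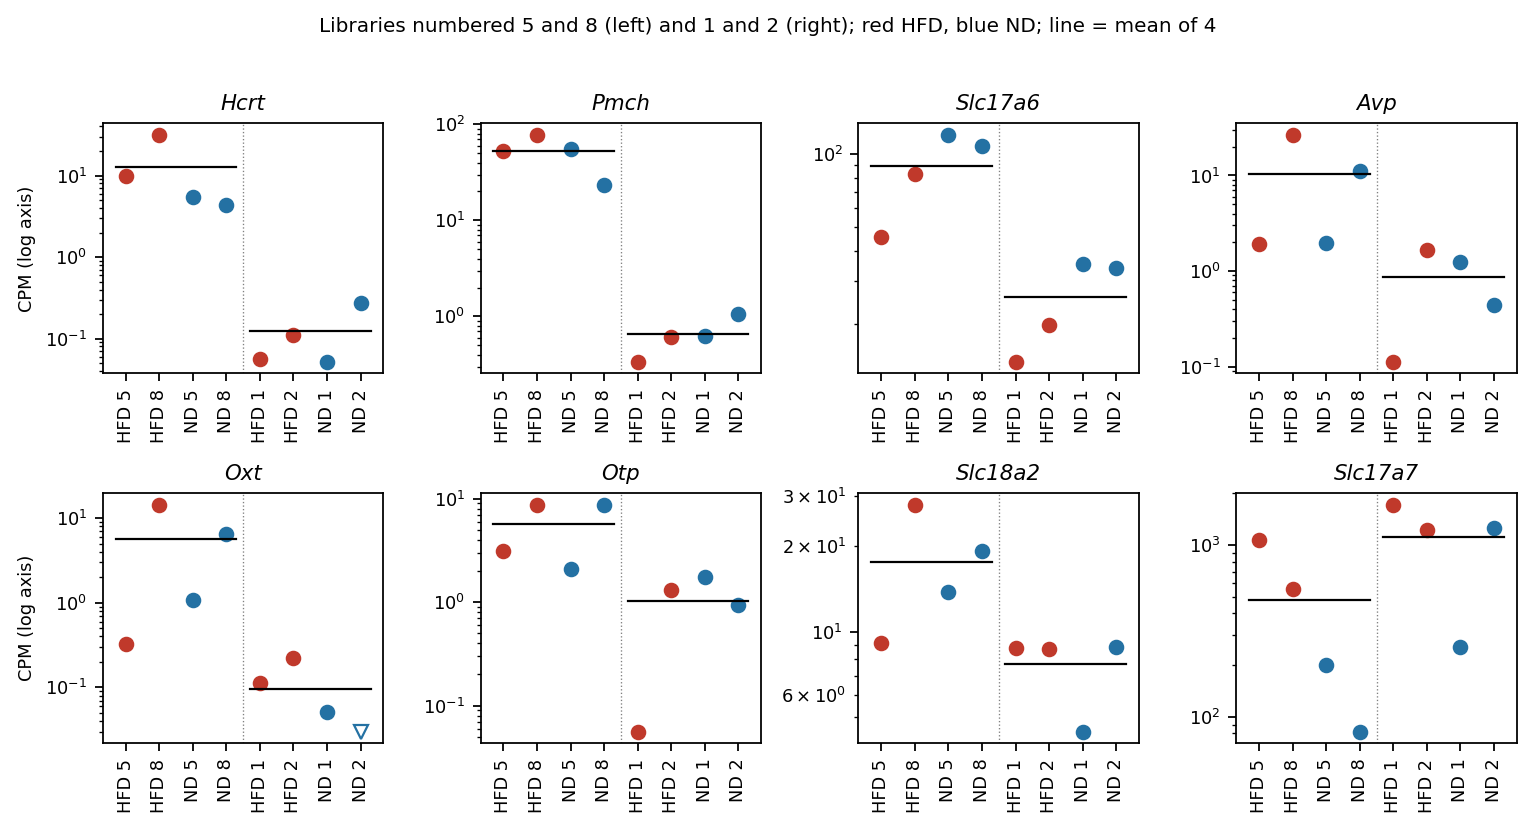
CPM of 8 genes on log axes, 1 point a library (red, high fat diet, HFD; blue, chow, ND), libraries numbered 5 and 8 to the left of those numbered 1 and 2. Black lines are the means of 4, and an open triangle near the floor stands for 0. Hcrt and Pmch lie at 4.31 CPM or above in the libraries numbered 5 and 8 and at 1.05 CPM or below in those numbered 1 and 2, while Slc17a7 overlaps.

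Slc17a6, which encodes VGLUT2, the vesicular glutamate transporter of hypothalamic and thalamic excitatory neurons, was also separated. It was at 45.4, 83.0, 120.1 and 107.9 CPM in high fat 5, high fat 8, chow 5 and chow 8, against 14.0, 19.8, 35.4 and 34.0 CPM in high fat 1, high fat 2, chow 1 and chow 2. No library numbered 1 or 2 reached the lowest of the other set, and within each set the chow libraries were above the high fat ones. The log2 fold was 1.82 ± 0.21, close to equal within the high fat diet at 1.92 and within chow at 1.72. Slc17a7, which encodes VGLUT1 of cortical, hippocampal and basolateral excitatory neurons, ran the other way with overlap. It was at 1064, 557, 200.1 and 81.8 CPM in high fat 5, high fat 8, chow 5 and chow 8, against 1724, 1217, 256 and 1265 CPM in high fat 1, high fat 2, chow 1 and chow 2. High fat 5 lay among the libraries numbered 1 and 2, chow 1 lay beside chow 5, and the log2 fold was -1.64 ± 0.61. It was -0.86 within the high fat diet, -2.42 within chow and -0.86 without chow 2.

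Over all genes, the edgeR quasi-likelihood fit called 1 of 15186 between the number sets at a Benjamini-Hochberg adjusted p under 0.05. That was Pmch, so 0.00659% were called, and nothing is read from this count because the split was chosen on these values. It called 0 genes lower, while 1336 genes had an unadjusted p under 0.05, 584 higher and 752 lower. DESeq2 called 42 higher and 58 lower. All 4 libraries numbered 5 and 8 lay above all 4 numbered 1 and 2 for 413 genes (2.72%), and below them for 343 (2.26%). A log2 fold of at least 1 within each diet was reached upward by 77 genes (0.507%) and downward by 61 (0.402%). The within-diet folds use no library in common, and they had the same sign for 9682 genes, or 63.8%. Across genes, which are not independent replicates, their Pearson correlation was 0.371.

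**Figure D2:**
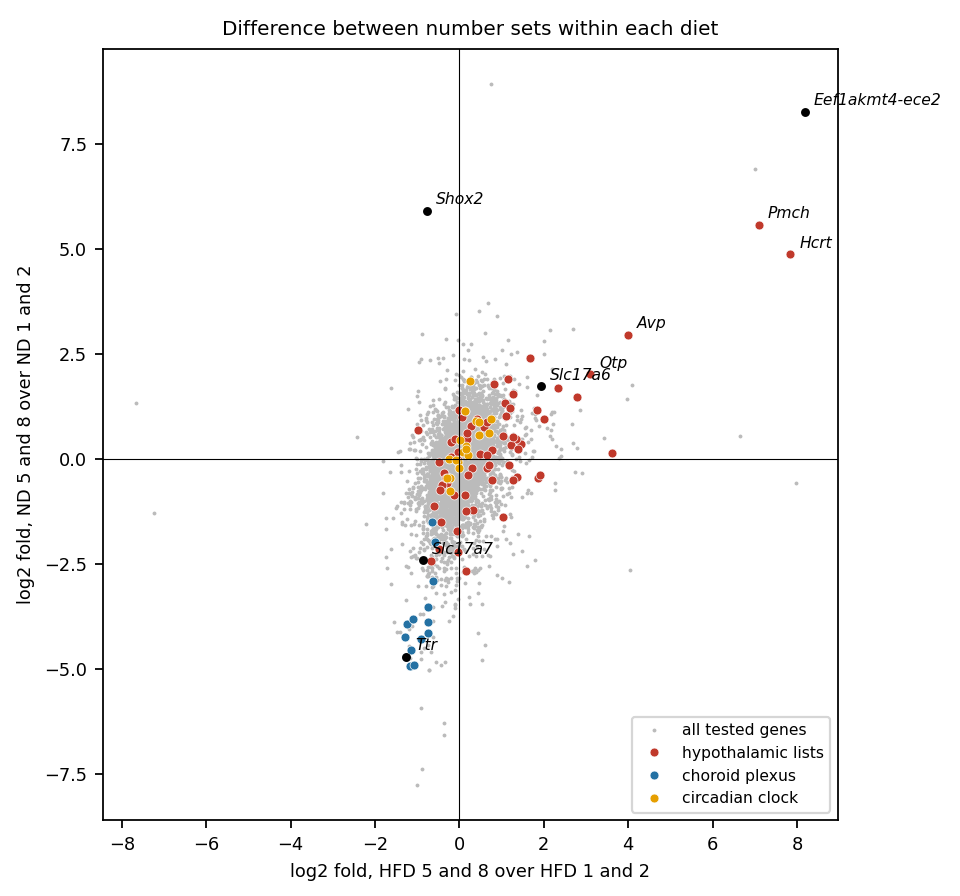
Log2 fold of numbers 5 and 8 over 1 and 2 within the high fat diet and within chow, 1 point a tested gene, with hypothalamic, choroid plexus and clock genes in colour and single genes in black. Pmch and Hcrt lie at the upper right with the readthrough gene Eef1akmt4-ece2, and 63.8% of the 15186 genes lie in the quadrants where both folds have the same sign.

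The lateral hypothalamus and zona incerta list, to which Hcrt and Pmch belong, had 14 members, of which 13 were tested. Of these, 10 had a positive fold and 3 a negative one, with a median log2 fold of 0.90 beside -0.0019 over all tested genes. The list score, the mean centred log2 CPM of the members, was 0.63 to 1.21 in the libraries numbered 5 and 8 and -1.84 to -0.31 in those numbered 1 and 2. Most of that gap came from Hcrt and Pmch, the genes that chose the split. Over the other 11 tested members, an alternative added after seeing the data, the score was 0.27 to 0.69 in the libraries numbered 5 and 8 and -1.56 to 0.15 in those numbered 1 and 2, with chow 5 the lowest of the one set and high fat 2 the highest of the other. Their median log2 fold was 0.77, with 8 positive and 3 negative. The median of all 13 was 0.51 without high fat 1. Lhx1, a homeobox gene of zona incerta, was the third member whose sets did not overlap, at 0.871, 2.85, 4.44 and 2.38 CPM in high fat 5, high fat 8, chow 5 and chow 8, against 0.504, 0.660, 0.466 and 0.828 CPM in high fat 1, high fat 2, chow 1 and chow 2. Its gap was narrow, between high fat 5 and chow 2. Without Hcrt and Pmch, this was 1 of 11 members, or 9.09%, beside 2.72% of all genes. The other tested members overlapped. Cartpt, a feeding peptide, had a log2 fold of 0.77 ± 0.43, and Gal, the galanin gene, had 1.06 ± 0.63. Nts, the neurotensin gene, had 0.49 ± 0.49 and Pdyn, the dynorphin gene, had 0.18 ± 0.84. Lepr, the leptin receptor, had -0.37 ± 0.42. Qrfp was not tested and was at most 0.31 CPM in any library.

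Across 8 hypothalamic lists with 100 genes, 98 were in the table and 72 were tested. Of the tested genes, 48 had a positive and 24 a negative fold, with a median of 0.358. The number sets did not overlap for 8 of the tested genes upward, namely Avp, Foxb1, Hcrt, Lhx1, Otp, Pmch, Pou3f2 and Slc18a2. Without Hcrt and Pmch, which chose the split, this was 6 of 70 genes, or 8.57% beside 2.72% of all genes, with a median of 0.33. The score of these 70 genes overlapped, at 0.12 to 0.50 in the libraries numbered 5 and 8 and -0.83 to 0.14 in those numbered 1 and 2. Downward there was 1 of the 72 tested genes, Npy, beside 2.26% of all genes. Among the untested genes, 3 lay higher in every library numbered 5 and 8, namely Oxt, Sim1 and Hmx3. The 2.72% covers tested genes only. The share of untested genes outside these lists with this pattern was not counted, so nothing is read from these 3. Of the 72 tested genes, 24 reached the count minimum in fewer than 4 of the libraries numbered 1 and 2, so a high level in the other set decided whether they entered. Of the 26 untested genes, 21 were under 1 CPM in every library.

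Neurosecretory genes of the paraventricular and supraoptic nuclei were highest in the 2 libraries numbered 8. Avp, the vasopressin gene, was at 1.90, 26.7, 1.97 and 11.1 CPM in high fat 5, high fat 8, chow 5 and chow 8, against 0.112, 1.65, 1.24 and 0.442 CPM in high fat 1, high fat 2, chow 1 and chow 2. The values of high fat 5 and chow 5 lay just above high fat 2. Oxt, the oxytocin gene, was at 0.327, 14.4, 1.07 and 6.52 CPM in high fat 5, high fat 8, chow 5 and chow 8, against 0.112, 0.220, 0.0517 and 0 CPM in high fat 1, high fat 2, chow 1 and chow 2. Otp, a homeobox gene needed to form these neurosecretory cells, was at 3.16, 8.78, 2.08 and 8.79 CPM in high fat 5, high fat 8, chow 5 and chow 8, against 0.0560, 1.32, 1.76 and 0.939 CPM in high fat 1, high fat 2, chow 1 and chow 2. Sim1, a transcription factor of the same lineage, stayed at or under 0.276 CPM in the libraries numbered 1 and 2 and reached 2.64 CPM in high fat 8 and 2.05 CPM in chow 8. High fat 8 and chow 8 were the 2 highest libraries for 9 of the 72 tested hypothalamic genes, or 12.5%. Over all tested genes, this held for 519, or 3.42%. The pattern was counted after it had been seen in genes such as Avp and Otp, which are among the 72. Nothing is therefore read from the difference between these shares. Crh and Trh overlapped, with log2 folds of 0.33 ± 0.63 and 0.25 ± 0.81. The sign of each turned when 1 library was left out. The paraventricular and supraoptic list had 8 positive and 2 negative folds among 10 tested members. Its median was 0.46, which was 0.20 without high fat 1.

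Genes of other hypothalamic groups differed in both directions. Foxb1, a transcription factor of the mammillary body, was at 0.979, 2.14, 2.42 and 1.38 CPM in high fat 5, high fat 8, chow 5 and chow 8, against 0.112, 0.495, 0.776 and 0.386 CPM in high fat 1, high fat 2, chow 1 and chow 2. Slc18a2, the vesicular transporter of monoamines, ran from 9.14 to 28.0 CPM in the libraries numbered 5 and 8 and from 4.45 to 8.83 CPM in those numbered 1 and 2. Hdc, the histamine-synthesising enzyme of tuberomammillary neurons, went against the pattern, at 1.40 to 3.21 CPM in the libraries numbered 5 and 8 and at 18.9 CPM in chow 1 beside 1.55 to 3.19 CPM in the other libraries numbered 1 and 2. Npy, the neuropeptide Y gene, made by arcuate neurons and by interneurons of the amygdala and cortex, was lower, at 30.6 to 39.0 CPM in the libraries numbered 5 and 8 and 39.5 to 103.1 CPM in those numbered 1 and 2. Some markers of the arcuate and ventromedial nuclei were low in all 8 libraries, Pomc within the range of Foxb1. Agrp was at most 0.828 CPM, Nr5a1 at most 0.442 CPM and Pomc at most 2.07 CPM. Fezf1, another hypothalamic gene, was at 2.43 CPM in chow 1. The median log2 folds were 0.23 for 12 arcuate, 0.22 for 10 ventromedial and dorsomedial, 0.72 for 9 mammillary and 0.51 for 10 suprachiasmatic and preoptic genes. These medians moved with single libraries. The arcuate median turned negative without high fat 8. The mammillary median was 0.10 without high fat 2 and -0.08 within chow. The ventromedial and dorsomedial median ran from 0.01 without high fat 1 to 0.62 without chow 2, and was -0.26 within chow. The suprachiasmatic and preoptic median was 0.28 without chow 5 and 0.80 without high fat 2. Of 12 tested hypothalamic transcription factors, 10 had a positive fold, with a median of 0.49 that was 0.94 without high fat 2.

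The receptors for these peptides had smaller folds. Hcrtr2, a hypocretin receptor, was at 4.79, 8.40, 4.72 and 8.73 CPM in high fat 5, high fat 8, chow 5 and chow 8, against 4.09, 4.73, 3.83 and 4.14 CPM in high fat 1, high fat 2, chow 1 and chow 2. The libraries numbered 8 were again the highest, and chow 5 overlapped with high fat 2. Hcrtr1, the other hypocretin receptor, had a log2 fold of 0.34 ± 0.59. Mchr1, the receptor for melanin-concentrating hormone, had -0.44 ± 0.19, and Oxtr, the oxytocin receptor, had -0.60 ± 0.18.

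**Figure D3:**
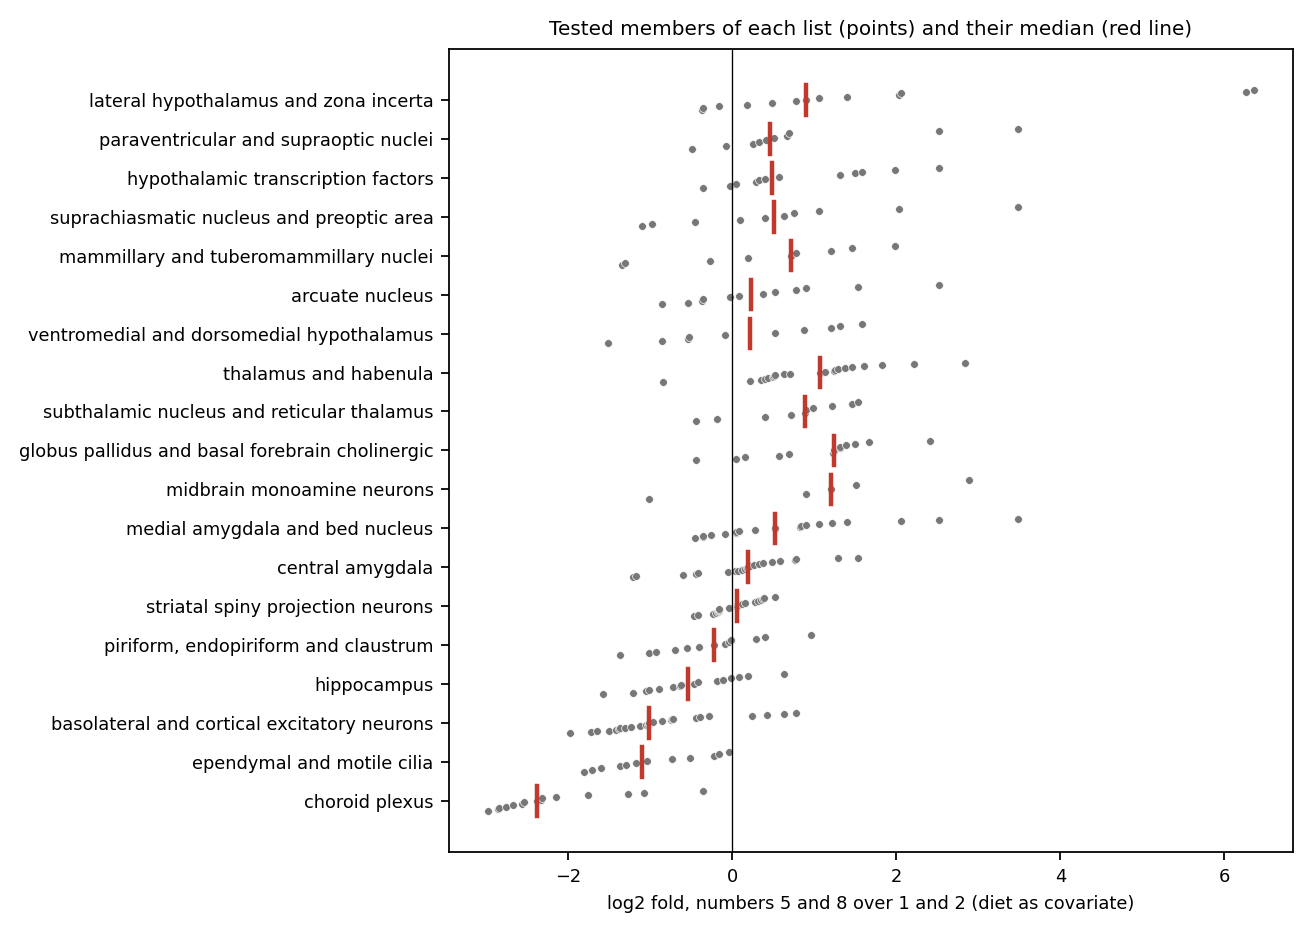
Log2 fold of numbers 5 and 8 over 1 and 2 for the tested members of each region list, 1 point a gene, with the list's median as a red line. The lateral hypothalamus list, in which Hcrt and Pmch are the 2 points at the far right, has a median of 0.90, or 0.77 without them, and the basolateral and cortical excitatory list a median of -1.02.

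Lists for nuclei next to the amygdala and the hypothalamus had positive medians as well. Of 21 tested thalamic and habenular genes, 20 had a positive fold, with a median of 1.07. However, 2 chow libraries carried most of it, as the median was 0.26 within the high fat diet and 1.12 within chow. The list score did not overlap. It was -0.22 to 1.39 in the libraries numbered 5 and 8 and -0.84 to -0.31 in those numbered 1 and 2. Shox2, a transcription factor of thalamic neurons, was at 0.327, 0.549, 33.0 and 9.68 CPM in high fat 5, high fat 8, chow 5 and chow 8, against 0.392, 1.10, 0 and 0.718 CPM in high fat 1, high fat 2, chow 1 and chow 2. Prkcd, which marks both thalamic relay neurons and a class of central amygdala neurons, was at 14.1, 14.8, 272.7 and 58.4 CPM in high fat 5, high fat 8, chow 5 and chow 8, against 10.97, 25.1, 25.9 and 20.1 CPM in high fat 1, high fat 2, chow 1 and chow 2. Both genes were high in chow 5 and chow 8 and not in high fat 5 and high fat 8, and within the high fat diet their folds were -0.76 and -0.32. Zic1, a transcription factor of the medial thalamus and septum whose annotation overlaps that of Zic4, had 1.24 ± 0.28, with 1.05 within the high fat diet and 1.43 within chow. Cbln1, a synaptic organiser, had 1.60 ± 0.45, with 2.18 within the high fat diet and 1.06 within chow.

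Of 14 tested genes of the globus pallidus and cholinergic basal forebrain, 13 had a positive fold, with a median of 1.24 that dropped to 0.48 without high fat 8. Slc5a7, the choline transporter, was at 3.97, 51.4, 50.9 and 92.2 CPM in high fat 5, high fat 8, chow 5 and chow 8, against 1.85, 11.9, 17.2 and 3.09 CPM in high fat 1, high fat 2, chow 1 and chow 2. High fat 5 lay among the libraries numbered 1 and 2. Chat, the acetylcholine-synthesising enzyme, had 1.67 ± 1.07 and was as high in chow 1, at 21.9 CPM, as in high fat 8, at 20.5 CPM. Of 10 genes of the subthalamic nucleus and reticular thalamus, 8 were positive with a median of 0.89. Of 5 tested midbrain monoamine genes, 4 had a positive fold and 1 a negative one. Their score was highest in high fat 8 and chow 8, at 1.595 and 0.750, beside -0.851 to -0.074 in the rest. Their summed level was highest in high fat 8, at 154.4 CPM. In chow 8 it was 90 CPM, below high fat 5 at 143.9, high fat 1 at 102.3 and chow 2 at 94.18 CPM. Slc6a3, the dopamine transporter, was at 1.58, 37.2, 2.25 and 15.1 CPM in high fat 5, high fat 8, chow 5 and chow 8, against 5.21, 0.770, 1.24 and 0.773 CPM in high fat 1, high fat 2, chow 1 and chow 2. Th, the rate-limiting enzyme of dopamine synthesis, was at 29.2 CPM in high fat 8 and 16.3 CPM in chow 8, but 17.2 CPM in chow 1.

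Most markers of the amygdala overlapped between the number sets. Of 22 tested central amygdala genes, 16 had a positive and 6 a negative fold, with a median of 0.19 that turned negative without high fat 1. Penk, the enkephalin gene, was at 116.2, 233, 377 and 716 CPM in high fat 5, high fat 8, chow 5 and chow 8, against 20.2, 373, 796 and 87.8 CPM in high fat 1, high fat 2, chow 1 and chow 2. It was low in high fat 1 and chow 2 and high in chow 1 and chow 8, and its log2 fold was 0.07 ± 0.88. Sst, the somatostatin gene, had -0.44 ± 0.19, and Crhbp, a binding protein for corticotropin-releasing hormone, had -1.21 ± 0.30. Ezr, an actin linker, was the list's only member whose sets did not overlap, at 33.1 to 46.5 CPM in the libraries numbered 5 and 8 and 53.7 to 233 CPM in those numbered 1 and 2. Ezr made 4.545% of the list, beside 2.26% of all genes without overlap downward. Of 20 medial amygdala and bed nucleus genes, 15 were positive with a median of 0.52, which was 0.25 without high fat 1. The number sets did not overlap upward for 2 of them, or 10% beside 2.72% of all genes, namely Avp and Otp, which the paraventricular list also holds. Of 20 striatal genes, 11 were positive with a median of 0.06, whose sign turned when any of 4 libraries was left out. GABAergic and pan-neuronal genes had medians of 0.03 and -0.04.

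Genes of cortical, basolateral and hippocampal excitatory neurons were mostly lower. Of 27 tested members of the first list, 23 had a negative fold and 4 a positive one, with a median of -1.02, which was -0.25 within the high fat diet and -1.59 within chow. The score was 0.91, 0.05, -1.12 and -1.26 in high fat 5, high fat 8, chow 5 and chow 8, against 0.83, 0.63, -0.93 and 0.89 in high fat 1, high fat 2, chow 1 and chow 2. Chow 1 was the lowest of the libraries numbered 1 and 2, though above chow 5 and chow 8, and the median was -0.38 without chow 2. Nrgn, a postsynaptic calmodulin-binding protein, was the only member without overlap, at 867, 726, 327 and 458 CPM in high fat 5, high fat 8, chow 5 and chow 8, against 1295, 1205, 1168 and 889 CPM in high fat 1, high fat 2, chow 1 and chow 2. Nrgn made 3.70% of its list, beside 2.26% of all genes without overlap downward. Piriform and claustral genes had a median of -0.22 and hippocampal genes -0.54, which was 0.03 without chow 2.

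**Figure D4:**
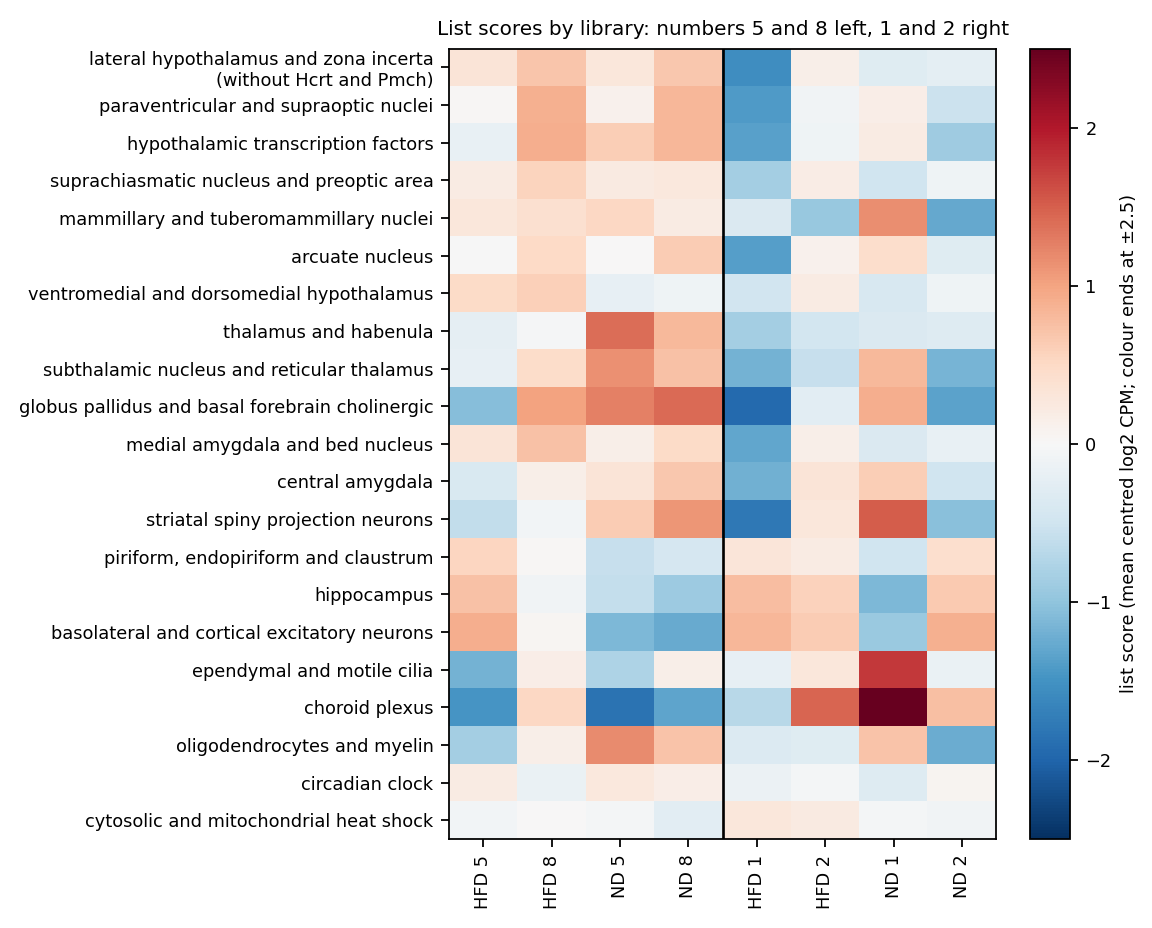
Score of 21 gene lists in each library as colour (HFD, high fat diet, ND, chow), the mean over tested members of log2 CPM centred on the member's mean over the 8 libraries, libraries numbered 5 and 8 to the left. The lateral hypothalamus row leaves out Hcrt and Pmch, and its score is 0.27 or above in the libraries numbered 5 and 8 and 0.15 or below in those numbered 1 and 2, while the choroid plexus score is highest in chow 1 at 2.60.

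Marker lists of other cell types differed between libraries as well. All 15 tested choroid plexus genes had a negative fold, in both diets, with a median of -2.38, at -0.90 within the high fat diet and -3.93 within chow. The choroid plexus score was -1.47, 0.51, -1.84 and -1.32 in high fat 5, high fat 8, chow 5 and chow 8, against -0.69, 1.46, 2.60 and 0.74 in high fat 1, high fat 2, chow 1 and chow 2. High fat 8 was above high fat 1, so the sets overlapped. Ttr, the transthyretin gene of choroid plexus epithelium, was at 71.5 to 1194 CPM in the libraries numbered 5 and 8 and at 397 to 5794 CPM in those numbered 1 and 2. All 12 ependymal genes were negative with a median of -1.11, which was -0.23 without chow 1. Of 18 myelin genes, 17 were positive with a median of 0.43, at scores of -0.85 to 1.18 in the libraries numbered 5 and 8 and -1.25 to 0.72 in those numbered 1 and 2. Astrocyte, microglial and oligodendrocyte precursor medians were 0.06, 0.10 and 0.21, and those of endothelial cells, pericytes and fibroblasts were -0.19, -0.17 and -0.37. The part of these cell types in the levels of Hcrt and Pmch was not tested.

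Genes with the smallest p between the number sets, after Pmch, Slc17a6 and Hcrt, included several outside any region list. Minar1, which encodes a regulator of Notch signalling, was at 9.52, 13.01, 15.9 and 16.1 CPM in high fat 5, high fat 8, chow 5 and chow 8, against 5.99, 5.998, 4.92 and 6.57 CPM in high fat 1, high fat 2, chow 1 and chow 2. Plcxd2, a gene with a phospholipase C domain, had a log2 fold of 0.83 ± 0.14. Serinc2, a serine incorporator, was lower, at 2.503, 3.62, 2.25 and 1.66 CPM in high fat 5, high fat 8, chow 5 and chow 8, against 10.2, 9.96, 16.5 and 7.45 CPM in high fat 1, high fat 2, chow 1 and chow 2. Neither Minar1 nor Serinc2 overlapped between the sets. Over all genes, 2.72% lay above and 2.26% below without overlap. Genes of this rank were picked by their p in this same contrast, so nothing is read from a lack of overlap among them. Pip4k2c, a phosphoinositide kinase, had -0.65 ± 0.11, Ociad2 had -0.72 ± 0.13 and Wscd2 had -0.86 ± 0.16, all without overlap. Tgfb2, a growth factor, and Mmp17, a membrane metalloprotease, had -1.04 ± 0.18 and -0.98 ± 0.18, with overlap.

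Among the upward genes with the smallest p was an annotated readthrough transcript. Eef1akmt4-ece2, which spans the neighbouring genes Eef1akmt4 and Ece2 on chromosome 16, was at 2.78, 1.21, 2.25 and 1.94 CPM in high fat 5, high fat 8, chow 5 and chow 8 and at 0 CPM in all 4 libraries numbered 1 and 2. Its 148 estimated counts make it at least 50-fold higher than a floor of 3 counts over the libraries numbered 1 and 2. The estimated counts of Ece2 and Eef1akmt4 were whole numbers in the libraries numbered 1 and 2 and fractional in those numbered 5 and 8. Of 14163 genes with at least 10 estimated counts in every library, 5 had that pattern, the other 3 being Mdm1, Tnfrsf12a and Tceanc2, and Pds5b had the reverse. These 4 were chosen after their values were seen. Gm46290, the only other tested gene at 0 in every library numbered 1 and 2, was at least 20.6-fold higher by the same floor. Reads that the authors' counting could divide among overlapping genes make these values uncertain.

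Some genes with large folds in both diets were chosen after their values were seen. Unc13c, a presynaptic priming factor, was at 71.3, 152, 351 and 309 CPM in high fat 5, high fat 8, chow 5 and chow 8, against 19.0, 67.7, 48.4 and 64.6 CPM in high fat 1, high fat 2, chow 1 and chow 2. Ebf3 and Zfhx4, both transcription factor genes, had log2 folds of 1.58 ± 0.28 and 1.69 ± 0.32. Irs4, an insulin receptor substrate, had 1.15 ± 0.36 and Brs3, an orphan receptor of the bombesin family, had 1.43 ± 0.58. Both genes are known for their expression in hypothalamus. Stra6, a retinol transporter, had -1.89 ± 0.40. None of these 6 genes overlapped between the sets, but they were chosen on their folds, so nothing is read from this. Over all genes, 2.72% lay above and 2.26% below without overlap.

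The genes whose pattern was most like that of Hcrt were ranked by Pearson correlation of log2 CPM over the 8 libraries after removing each diet's mean, among 15185 genes. Uhrf1bp1 was first at 0.988 and Pmch followed at 0.987. Cdv3, Zic4, Slc17a6, Col9a1, Exosc8 and Gdi2 had 0.979, 0.973, 0.972, 0.964, 0.964 and 0.961. The size of the difference varied widely among them, since the log2 fold was 0.37 ± 0.10 for Uhrf1bp1 and 0.05 ± 0.10 for Gdi2. With 8 libraries in 2 separated sets, these correlations describe the split itself.

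Clock genes had folds of one sign within both diets. All 19 tested members had the same sign of fold within the high fat diet and within chow, beside 63.8% of all genes, with 12 positive and 7 negative folds, several of them close to 0. The list score overlapped, at -0.17 to 0.26 in the libraries numbered 5 and 8 and -0.33 to 0.06 in those numbered 1 and 2. High fat 8 was the lowest of the first set. Ciart, a repressor of the clock's activators, was at 16.8, 12.6, 23.5 and 21.0 CPM in high fat 5, high fat 8, chow 5 and chow 8, against 8.40, 9.14, 10.1 and 12.9 CPM in high fat 1, high fat 2, chow 1 and chow 2. Only high fat 8 lay below chow 2. Per3, a period gene, was at 51.2 to 72.0 CPM in the libraries numbered 5 and 8 and 27.4 to 45.9 CPM in those numbered 1 and 2, and Nr1d2, which encodes the repressor REV-ERBβ, was at 131 to 179 CPM in the libraries numbered 5 and 8 and 68.6 to 123 CPM in those numbered 1 and 2. Neither overlapped. Per3 and Nr1d2 were the list's only members without overlap upward, 2 of 19, or 10.53% beside 2.72% of all genes. Dbp, an output transcription factor, was at 77.5, 81.2, 111.5 and 114 CPM in high fat 5, high fat 8, chow 5 and chow 8. It was at 42.5, 55.1, 94.3 and 54.6 CPM in high fat 1, high fat 2, chow 1 and chow 2, where chow 1 overlapped. Bhlhe41 had 0.51 ± 0.13.

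Arntl, which encodes the activator BMAL1, ran in the opposite direction. It was at 32.4, 24.8, 26.7 and 25.1 CPM in high fat 5, high fat 8, chow 5 and chow 8, against 34.7, 35.3, 33.9 and 37.5 CPM in high fat 1, high fat 2, chow 1 and chow 2, with no overlap. Arntl was the list's only member without overlap downward, 5.26% beside 2.26% of all genes. Npas2, a partner of BMAL1, and Nfil3, a repressor of D-box genes, had -0.35 ± 0.25 and -0.51 ± 0.23. Per1, Cry1, Cry2, Nr1d1 and Tef had log2 folds between -0.12 and 0.15. Rora and Rorb, which thalamic neurons also express, had 1.04 ± 0.45 and 0.62 ± 0.32 and were highest in chow 5. Of 6 cold-responsive RNA-binding genes, 5 were positive, with Cirbp at 0.46 ± 0.14 and Rbm3 at 0.43 ± 0.16. The labels give no hour of tissue collection.

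**Figure D5:**
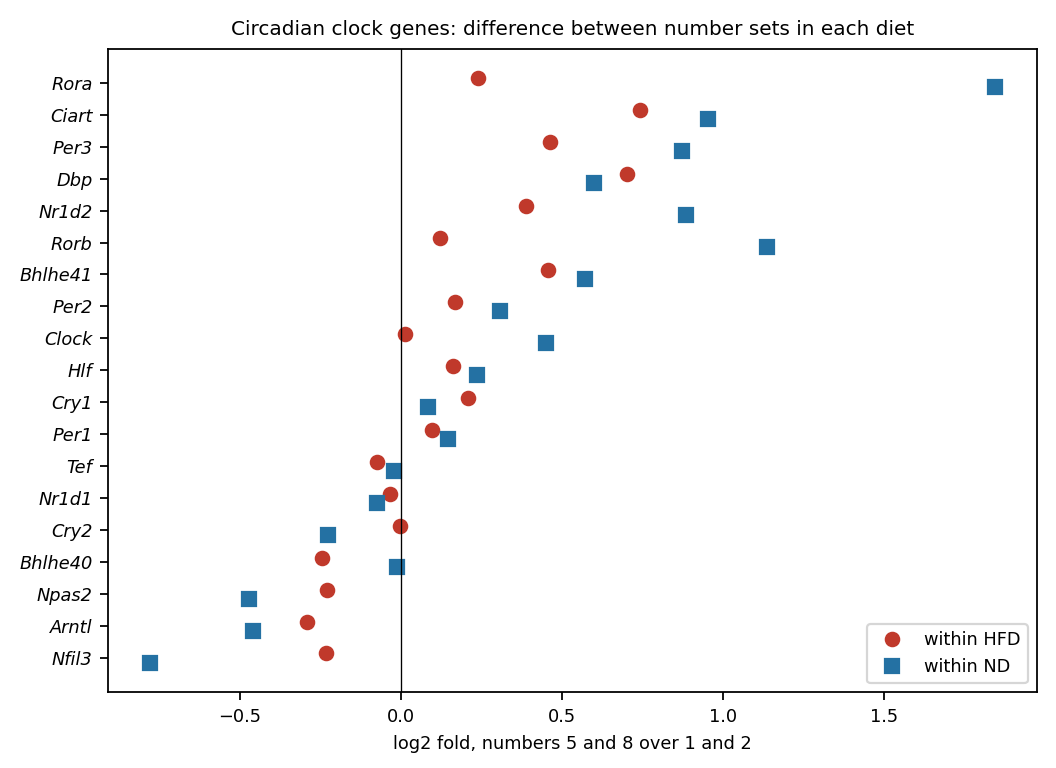
Log2 fold of numbers 5 and 8 over 1 and 2 for the 19 clock genes, within the high fat diet (HFD, red circles) and within chow (ND, blue squares). The 2 points of a gene lie on the same side of 0 for all 19, from Rora, at 0.24 and 1.84, to Nfil3, at -0.23 and -0.78, although some, such as Cry2 within the high fat diet, lie almost on it.

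Stress and activity genes had mostly negative folds of small size. Of 24 immediate early genes, 21 were negative with a median of -0.48, and of 22 unfolded protein response genes, 18 were negative with a median of -0.26. Of 18 heat shock genes, 15 were negative with a median of -0.18. Hspa1b, an inducible chaperone with a near-identical copy, was at 14.7, 12.7, 6.01 and 4.09 CPM in high fat 5, high fat 8, chow 5 and chow 8, against 27.3, 26.6, 6.52 and 16.6 CPM in high fat 1, high fat 2, chow 1 and chow 2, where chow 1 overlapped. Interferon and inflammatory lists had medians of -0.29 and -0.33, and the first was -0.05 without chow 1. Ribosomal protein, oxidative phosphorylation, insulin and mTOR, fatty acid and cholesterol lists had medians between -0.15 and 0.10, and glucocorticoid-responsive genes had 0.09. All 7 tested splicing and nuclear-retained RNA genes were positive with a median of 0.30, which was 0.11 without chow 1, and the 4 Y-linked genes were positive with a median of 0.39.

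Whether the difference between number sets depended on diet was tested as the interaction of the pair, which the split did not use. edgeR called 0 of 15186 genes (0%), and 365 genes had an unadjusted p under 0.05. Its smallest adjusted p was 0.999. DESeq2 called 6 and limma-voom 0. For Hcrt, the fold within the high fat diet exceeded that within chow by 2.98 ± 1.42 on the log2 scale, and for Pmch by 1.53 ± 0.80 (both adjusted p = 0.999 by edgeR with Benjamini-Hochberg adjustment). Slc17a6 had an interaction of 0.21 ± 0.44 (adjusted p = 0.999). The genes with the smallest p, given as values that did not pass, included Car12, a carbonic anhydrase, at 1.56 ± 0.29, Slc13a4, a sulfate transporter, at 3.37 ± 0.67 and Amn at 2.39 ± 0.41, with Crybg3 at -1.44 ± 0.29 and Grid2ip at -2.79 ± 0.64 on the negative side. Without chow 2, edgeR called 2779 genes for the interaction, 930 positive and 1849 negative, in a fit where chow 1 alone stood for its group and was assumed to vary like the others. Leaving out any of the other 7 libraries gave 0.

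High fat diet was compared with chow with the number set as a covariate. edgeR called 0 of 15186 genes (0%), and 858 genes had an unadjusted p under 0.05, 491 higher and 367 lower. Its smallest adjusted p was 0.734. DESeq2 called 14 and limma-voom 0. Hcrt had a log2 fold of high fat diet over chow of 1.53 ± 0.68 and Pmch had 0.27 ± 0.43 (adjusted p = 0.734 and 0.850 by edgeR). Zic4 and Zic1 had the smallest p among negative folds, at -1.07 ± 0.19 and -1.47 ± 0.28, and Slc17a6 was among these at -0.93 ± 0.21 (each adjusted p = 0.734 by edgeR). Hs3st2, a heparan sulfate sulfotransferase, had 0.95 ± 0.17 and Tgfb2 had 0.99 ± 0.18 (each adjusted p = 0.734 by edgeR). Without chow 2, edgeR called 70 genes between diets, 64 higher and 6 lower.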

How the data were processed

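Single-end mRNA reads of 8 central amygdala libraries were generated on a BGISEQ-500 instrument after Trizol extraction and oligo(dT) selection, per the labels' protocols. The authors deposited estimated counts per gene for each library, and 35.2% of the values were not whole (tolerance 1e-06). The submitters' processing notes name Bowtie2 2.2.5, RSEM 1.2.8 and build mm10. The strand setting is not given in the sources used here. Reads of a gene and of one that overlaps it or runs antisense to it therefore cannot be separated. Means over each diet in the same table were not used here.

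Counts were rounded to whole numbers, and of 18983 genes 15186 passed filterByExpr grouped by number set (at least 10 counts in 4 libraries). Libraries were scaled by TMM factors. The test was the quasi-likelihood one of edgeR 4.0.16 (R 4.3.3), two-sided, and a gene was called at a p under 0.05 after Benjamini-Hochberg adjustment. The number set was fitted with diet as a covariate, diet with the number set as a covariate, and the interaction with both. CPM used TMM-scaled library sizes and log2 CPM a prior count of 2. Groups were read from the titles. RefSeq on GRCm38.p6, the build of mm10, held 15151 of the tested genes by identifier, and its coordinates and promoters are printed.

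The split, its markers and the 47 gene lists, partly taken from an earlier session on these data, were chosen with earlier results of these data known. The genes named were the 6 with the smallest p in each direction for each contrast, members of the region lists, the 2 with the smallest p of every other list where used, and the 8 most like Hcrt. The 18 mitochondrially encoded genes listed were not analysed here. The fits were tested on simulated data. Alternatives were DESeq2 1.42.0, limma-voom in limma 3.58.1, RLE and upper-quartile factors, other count filters, no diet term, each diet alone, the title number as a block, an adjusted p under 0.1, and leaving out each library.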

Additional observations from a re-analysis of the deposited data

Results flagged for a closer look

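A library was picked out where its gap to the nearest of the 4 libraries of its number set, divided by their range, exceeded the 95% critical value of Dixon. Of 272 sets of 4 looked at, 25 exceeded it, where chance flags about 1 in 20, or 14, and 13 of the 25 were in chow 1. No difference between diets in the number set contrast passed the test of the interaction.

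Among the libraries numbered 5 and 8, high fat 8 was high for the choroid plexus genes Ttr, at 1194 CPM beside 71.5 to 201 CPM in the other 3, and Sostdc1, at 9.001 CPM beside 1.97 to 2.78 CPM. High fat 5 was high for Rspo2, an excitatory neuron gene, at 41.9 CPM beside 1.99 to 8.78 CPM, and for Nfil3, at 11.9 CPM beside 6.53 to 7.30 CPM. It was low for the ribosomal protein gene Rpl38, at 118.6 CPM beside 142 to 146 CPM, and for Col9a1, at 0.599 CPM beside 1.32 to 1.38 CPM. Chow 8 was low for Lmx1a, at 0.774 CPM beside 1.18 to 1.21 CPM, and high for Sox6, at 43.6 CPM beside 34.8 to 35.5 CPM.

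Among the libraries numbered 1 and 2, chow 1 was high for Lhx5, at 2.12 CPM beside 0.336 to 0.607 CPM. The same held for Fezf1, at 2.43 CPM beside 0 to 0.330 CPM, and Hdc, at 18.9 CPM beside 1.55 to 3.19 CPM. For Lmx1a, chow 1 was at 11.6 CPM beside 0.672 to 1.49 CPM. It was also high for Th, at 17.2 CPM beside 1.27 to 2.53 CPM, Ngfr, at 42.6 CPM beside 2.91 to 9.69 CPM, and Ezr, at 233 CPM beside 53.7 to 69.8 CPM. For Dynlrb2 it was at 19.1 CPM beside 1.46 to 2.21 CPM, and for the haemoglobin gene Hba-a2, which has a near-identical copy, at 718 CPM beside 39.9 to 85.6 CPM. For Ifi27 it was at 104.6 CPM beside 27.9 to 35.4 CPM, and for Ifitm3 at 24.6 CPM beside 8.28 to 10.05 CPM. It was low for Slc18a2, at 4.45 CPM beside 8.69 to 8.83 CPM, and Sox6, at 24.4 CPM beside 28.9 to 29.7 CPM. High fat 1 was high for Slc6a3, at 5.21 CPM beside 0.770 to 1.24 CPM, and Kdr, at 30.2 CPM beside 13.1 to 14.8 CPM. Chow 2 was high for Agrp, at 0.828 CPM beside 0.103 to 0.112 CPM, and Cbln1, at 23.2 CPM beside 6.83 to 8.18 CPM.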

How the results depend on the processing

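The single gene called between number sets, Pmch, stayed the only call under RLE and upper-quartile factors, both other count filters and without the diet term. Nothing is read from this, since the split was chosen on Hcrt and Pmch. DESeq2 called 100 genes and limma-voom 2 (Eef1akmt4-ece2 and Gm46290). The high fat libraries alone gave 1 (Pmch) and chow alone 0. Leaving out 1 library gave 0 to 1, with Pmch called only without chow 8 or chow 2. For the interaction, DESeq2 called 6 genes, and leaving out 1 library gave 0 to 2779. Between diets, DESeq2 called 14, and leaving out 1 library gave 0 to 70. The cause of these shifts was not tested. The 756 genes without overlap became 861 to 2500 with 1 library left out, as fewer libraries need to separate, an alternative added after seeing the data. A minimum of 1 count in place of 10 gave 17537 detected genes beside 15171.

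The labels do not say that a title number pairs libraries. Deviations of same-numbered libraries correlated at 0.0132, -0.0425 and 0.0353 for numbers 1, 2 and 5, so the numbers were not taken as a pairing. The libraries numbered 8 correlated at 0.389 and best with each other, a hint from the data and not from the design. With the title number as a random replicate block, limma-voom called 3 genes between number sets, Pmch, Eef1akmt4-ece2 and Gm46290. With a fixed replicate block, edgeR called 0 for the interaction and 0 between diets. Over 18 settings, 120 of 132 gene folds and 27 of 45 list medians kept their sign. Genes with fewer than 10 counts in several libraries, such as Hcrt, Oxt and Sim1 with numbers 1 and 2, are limited by counting.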
